A study of Mus musculus with 12 samples.

Results

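The 9 genes described here encode tenascins, lecticans, a link protein and membrane proteoglycans of oligodendrocyte progenitor cells (OPCs). They are Tnc, Tnr, Vcan, Ncan, Bcan, Hapln1, Cspg4, Cspg5 and Ptprz1, taken by symbol as 9 of the 20540 genes in the deposited table of log2 CPM (CPM, counts scaled to a common library size). All 9 were found and all 9 passed the filter on low values in every comparison. The cells were OPCs from the brain of C57BL/6 mice at postnatal day 6 to 7, held in proliferation in a medium labelled SATO+PDGFRA. They were transfected with a biotin-tagged microRNA mimic, either a control mimic or miR-27a, so that every group carries a biotin-tagged RNA and no group is untransfected. RNA was sequenced from the whole cells and from the pulldown of the tagged mimic. This gives 4 groups of 3 libraries each, namely whole-cell control, whole-cell miR-27a, pulldown control and pulldown miR-27a. The mimic dose, the time after transfection, and the number of animals are not stated in the labels, nor whether whole-cell and pulldown RNA came from the same dishes. Nothing in the labels says that the 3 libraries of a group came from separate cultures, so each p-value measures the spread between these libraries, which may be technical.

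Tenascins and lecticans are large secreted proteins of the brain's extracellular matrix. Lecticans carry chondroitin sulfate chains, bind hyaluronan at one end and tenascins at the other, and link proteins hold the lectican to hyaluronan. OPCs make several of these components and carry proteoglycans on their own membrane, among them NG2, the product of Cspg4, which is widely used to recognise the cell type. Astrocytes also make tenascin-C, neurocan, brevican and the receptor phosphatase PTPRZ1. A microRNA lowers target messages mainly through matches to its seed in their 3′ untranslated regions, and a tagged mimic is pulled down to recover RNA bound with it.

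The libraries held 15548418 to 24972188 reads assigned to genes. The OPC marker Pdgfra, the receptor for platelet-derived growth factor, stood at 554 ± 5.3 CPM (SD, n = 3) in whole-cell control, 502 ± 11 in whole-cell miR-27a, 1373 ± 19 in pulldown control and 1552 ± 53 in pulldown miR-27a. All 18 OPC markers outside the 9 genes passed the filter. Their summed level was 2947 to 3000 CPM in whole-cell control and 3068 to 3120 CPM in whole-cell miR-27a. It was 4500.5 to 4665 CPM in pulldown control and 5205 to 5309 CPM in pulldown miR-27a. Markers of other cell types were also detected. None of 16 astrocyte markers was at 0 in any group, and their summed level was 10764 to 10841 CPM in whole-cell control, 9701 to 9749 in whole-cell miR-27a, 7492 to 7637 in pulldown control and 5588 to 6552 in pulldown miR-27a. Genes of myelin and mature oligodendrocytes summed to 13987 to 15060 CPM in whole-cell RNA and 7004 to 9418 CPM in pulldown RNA. Neuron markers summed to 267 to 396 CPM over all libraries and microglial markers to 67.3 to 109 CPM. Endothelial, mural and fibroblast markers summed to 149 to 169 CPM in whole-cell RNA and 371 to 416 CPM in pulldown RNA. In bulk RNA fewer cells of a type and less RNA per cell cannot be told apart, and the part of other cell types in the values below was not tested. The host transcript row Mir27a held 0 to 2 reads in each library and does not measure the mimic. Pulldown miR-27a replicate 2 stood apart from its group, with a chi-square per degree of freedom of 29.9 against replicate 1 and 18.5 against replicate 3, compared with 1.86 to 10.1 for all other pairs within groups.

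The mature miR-27a-3p from RefSeq (GRCm38.p6, chr8:84208727-84208747, plus strand) is shown with its seed, bases 2 to 8, in capitals. Below it stand sites in the longest annotated 3′ untranslated region of the members that hold a match to the seed of at least 7 letters (for Tnr its 8mer, without its 7mers), taken from the GENCODE M21 transcripts, with the match in capitals inside a window of 30 bases. They are shown because they are the letters through which the mimic could pair with these messages.
miR-27a-3p: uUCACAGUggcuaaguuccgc
Tnr, chr1:159927298-159927305: tgaagacattaACTGTGAAgactctttgtt
Cspg4, chr9:56899175-56899181: cgggtcctggaACTGTGAccttagataaat
Cspg5, chr9:110258085-110258091: gtaagaaggggCTGTGAAgatggctgtcac
Cspg5, chr9:110261857-110261863: actgatgggtcCTGTGAActggatccatgc
Hapln1, chr13:89608253-89608259: aagttaccaaaACTGTGAtaaccctttttc
Coordinates are GRCm38, on the plus strand, and cover the capital letters. The searched letters were ACTGTGAA (8mer), ACTGTGA and CTGTGAA (7mers, both contained in the 8mer) and CTGTGA (6mer, contained in all of them), on the strand of the message only. Tnr held 1 8mer and 3 7mers in 7516 bases of 3′ untranslated region, Cspg4 1 7mer in 980 bases, Cspg5 2 7mers in 6091 bases and Hapln1 1 7mer in 3503 bases. Tnc (648 bases), Vcan (1919 bases), Bcan (341 bases) and Ptprz1 (1927 bases) held none of these letters, and Ncan held a single 6mer in 3235 bases. Thus 4 of 9 members held an 8mer or a 7mer, where 27.6% of the 16998 genes with an annotated 3′ untranslated region did. Of all genes tested, those with an 8mer had a median log2 change of -0.09 in whole-cell RNA with miR-27a, and 32.3% of them fell. Genes whose best match was a 7mer had a median of -0.01, and 16.3% of them fell. Genes with none of the letters had a median of 0.02, and 8.99% of them fell. In pulldown RNA the medians were -0.11 for an 8mer, -0.02 for a 7mer and 0.01 for none, and 17.7%, 8.89% and 5.47% fell. For the difference between these changes, pulldown less whole-cell, the medians were -0.01 for an 8mer, -0.008 for a 7mer and -0.02 for none. In the same order, 0.23%, 0.233% and 0.406% were called higher. A match is a description of letters and does not show binding.

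Ordered by level per length (CPM per kilobase of merged exon), brevican was the most abundant of the 9 messages in all 4 groups and the link protein gene the least. In whole-cell control Bcan stood at 229 ± 13 CPM per kilobase (SD, n = 3), followed by Ncan at 69.3 ± 0.68, Tnr at 28.9 ± 0.26, Tnc at 28.03 ± 0.90, Cspg5 at 22.8 ± 0.81, Ptprz1 at 21.2 ± 0.54 and Vcan at 19.6 ± 0.99. Cspg4 followed at 1.62 ± 0.10 and Hapln1 at 0.830 ± 0.027. The ranges of no neighbours in this order overlapped. With miR-27a in whole cells Tnc moved from the fourth place to the third at 61.0 ± 0.65, where its range overlapped that of Ncan (61.9 ± 4.6), and Ptprz1 and Vcan also overlapped. In pulldown control Cspg5 (43.1 ± 3.0) and Ptprz1 (40.9 ± 1.0) followed Ncan (104 ± 2.9), with overlapping ranges, ahead of Tnr and Tnc. In pulldown miR-27a Tnc was second at 89.4 ± 8.8, overlapping Ncan at 83.7 ± 13. The places between Bcan and Cspg4 depend on the length used. With the longest coding transcript in place of merged exons, Ptprz1 took the third place in whole-cell control and Tnr the fifth. On that length Tnc stood above Ncan in whole-cell miR-27a, at 66.7 against 61.9 CPM per kilobase. In pulldown miR-27a Ptprz1 (84.1) then stood just above Ncan (83.7).

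**Figure D1:**
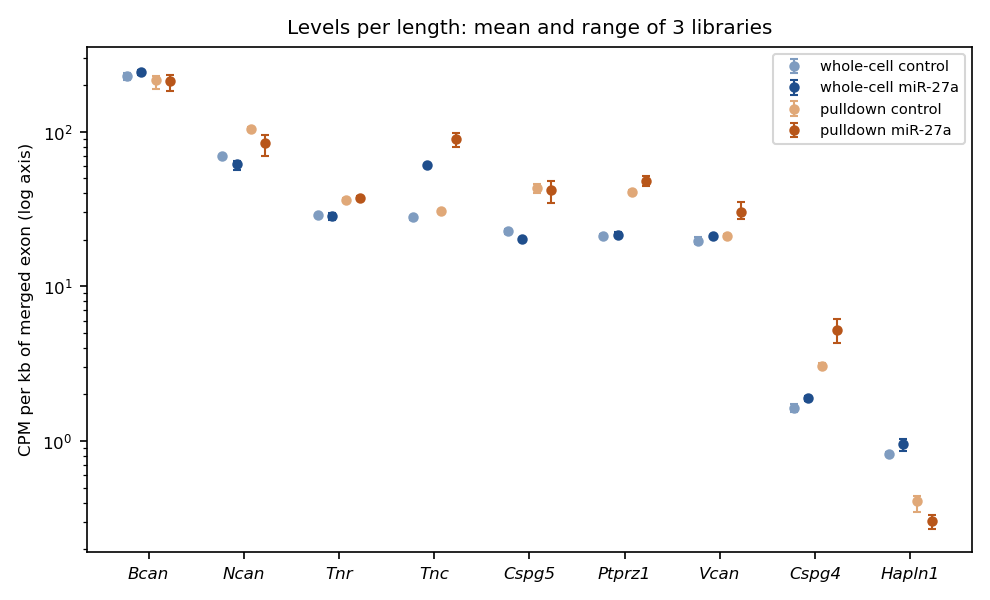
Level of each gene in CPM per kilobase of merged exon on a log axis, as the mean (point) and range (bar) of 3 libraries in each of the 4 groups. Bcan is highest and Hapln1 lowest in every group, and Tnc lies at 28.03 in whole-cell control and 89.4 in pulldown miR-27a.

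Transfection of miR-27a changed the matrix messages of whole cells unevenly. Tnc, tenascin-C, an adhesion-modulating glycoprotein of immature glia, rose more than 2-fold, and Vcan and Cspg4 rose slightly. Ncan and Cspg5 fell to 0.893 and 0.884 of their control level, and Tnr, Bcan, Hapln1 and Ptprz1 did not pass the test. The counts were thus 3 higher and 2 lower of 9, at an adjusted p under 0.05 from limma on log2(CPM + 1) with Benjamini-Hochberg adjustment over 13393 genes. Of all tested genes 24.9% were called, 13.0% higher and 11.9% lower. The median log2 change of the 9 genes was 0.08, against 0.01 for all genes. For 4 of the 9 genes every miR-27a library was above every control library, and for 2 below. Over all tested genes these shares were 20.3% and 18.4%.

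Among the tenascins, Tnc (chr4:63959785-64047015, minus strand) was at 210, 222 and 222 CPM in the 3 whole-cell control libraries and at 470, 480 and 472 CPM in the 3 miR-27a libraries. Every miR-27a library was above every control library, and the groups were 2.18-fold apart. The log2 change of 1.12 ± 0.03 (SE) had an adjusted p of 1.36e-16 and was the 4th highest of the 13393 genes tested. Tnr, tenascin-R, the relative of tenascin-C found around oligodendrocytes and neurons (chr1:159523769-159931729, plus strand), gave no such difference. It was at 368, 371 and 375 CPM in control and at 386, 346 and 369 CPM in miR-27a, and the groups overlapped. The log2 change was -0.02, with a 95% interval of -0.10 to 0.06 and an adjusted p of 0.752. The ratio of Tnc to Tnr CPM within a library, compared here between groups only, was 0.586 ± 0.015 (SD, n = 3) in control and 1.29 ± 0.084 in miR-27a. An opposite-strand transcript, 8030451A03Rik, covers 2.27% of the Tnc exon bases, reached at most 0.191 CPM in any library, and cannot be separated from Tnc if the counting ignored strand, which the sources used here do not state. In the same way an antisense gene, Gm38039, covers 3.44% of the Tnr exon bases.

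Among the lecticans, Vcan (chr13:89655312-89742509, minus strand), which encodes versican, was at 299, 276 and 273 CPM in control and at 310, 305 and 302 CPM in miR-27a. The groups did not overlap, although control replicate 1 lay within 3 CPM of the lowest miR-27a library. A log2 change of 0.11 ± 0.04 (SE) had an adjusted p of 0.0304 and was lost when any library but whole-cell control replicate 1 was left out, with adjusted p of 0.0879 without control replicate 2, 0.173 without control replicate 3, 0.128 without miR-27a replicate 1, 0.0657 without miR-27a replicate 2 and 0.0661 without miR-27a replicate 3. Ncan (chr8:70093085-70120873, minus strand), which encodes neurocan, was at 494, 504 and 498 CPM in control and at 465, 407 and 464 CPM in miR-27a. All 3 miR-27a libraries were lower, replicate 2 most. The log2 change was -0.17 ± 0.04 (SE), with an adjusted p of 0.0040, and the call was lost with all 12 libraries in 1 fit (adjusted p 0.259). Bcan (chr3:87987531-88000230, minus strand), which encodes brevican, was at 876, 978 and 937 CPM in control and at 998, 943 and 1016 CPM in miR-27a. The groups overlapped, the log2 change was 0.08 ± 0.04 (SE) and the adjusted p 0.113. Without whole-cell control replicate 2, the highest control library, the adjusted p of Bcan was 0.0206.

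Hapln1 (chr13:89539796-89611652, plus strand) encodes the cartilage link protein, which ties lecticans to hyaluronan. It was scarce, with 74 to 107 reads in a whole-cell library, and stood at 4.72, 4.97 and 5.01 CPM in control and at 5.77, 6.10 and 5.12 CPM in miR-27a. All 3 miR-27a libraries were higher; the groups did not overlap, in either direction, for 38.8% of all tested genes. The log2 change of 0.17 ± 0.11 (SE) did not pass, with an adjusted p of 0.289.

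Of the membrane proteoglycans, Cspg4 (chr9:56865033-56899870, plus strand), which encodes NG2, was at 18.4, 20.8 and 19.0 CPM in control and at 23.2, 21.6 and 22.8 CPM in miR-27a. The groups did not overlap. Its log2 change of 0.21 ± 0.07 (SE) had an adjusted p of 0.0392. The call was lost without control replicate 1 (adjusted p 0.109) or 3 (0.111) and without miR-27a replicate 1 (0.140) or 3 (0.118). Cspg5 (chr9:110243783-110262576, plus strand) encodes neuroglycan C, a transmembrane proteoglycan of brain with an EGF-like domain. It was at 221, 237 and 231 CPM in control and at 202, 201 and 205 CPM in miR-27a, and the 3 miR-27a libraries lay close together below all controls. The log2 change was -0.18 ± 0.04 (SE), with an adjusted p of 0.000811, and this call too was lost with all 12 libraries in 1 fit (adjusted p 0.244), where Tnc alone of the 9 genes was called in whole-cell RNA. Ptprz1 (chr6:22875502-23052916, plus strand) encodes a receptor tyrosine phosphatase that carries chondroitin sulfate and binds pleiotrophin and tenascins. It was at 311, 298 and 298 CPM in control and at 317, 309 and 297 CPM in miR-27a. The groups overlapped, and the log2 change of 0.02 had a 95% interval of -0.05 to 0.10 and an adjusted p of 0.665.

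**Figure D2:**
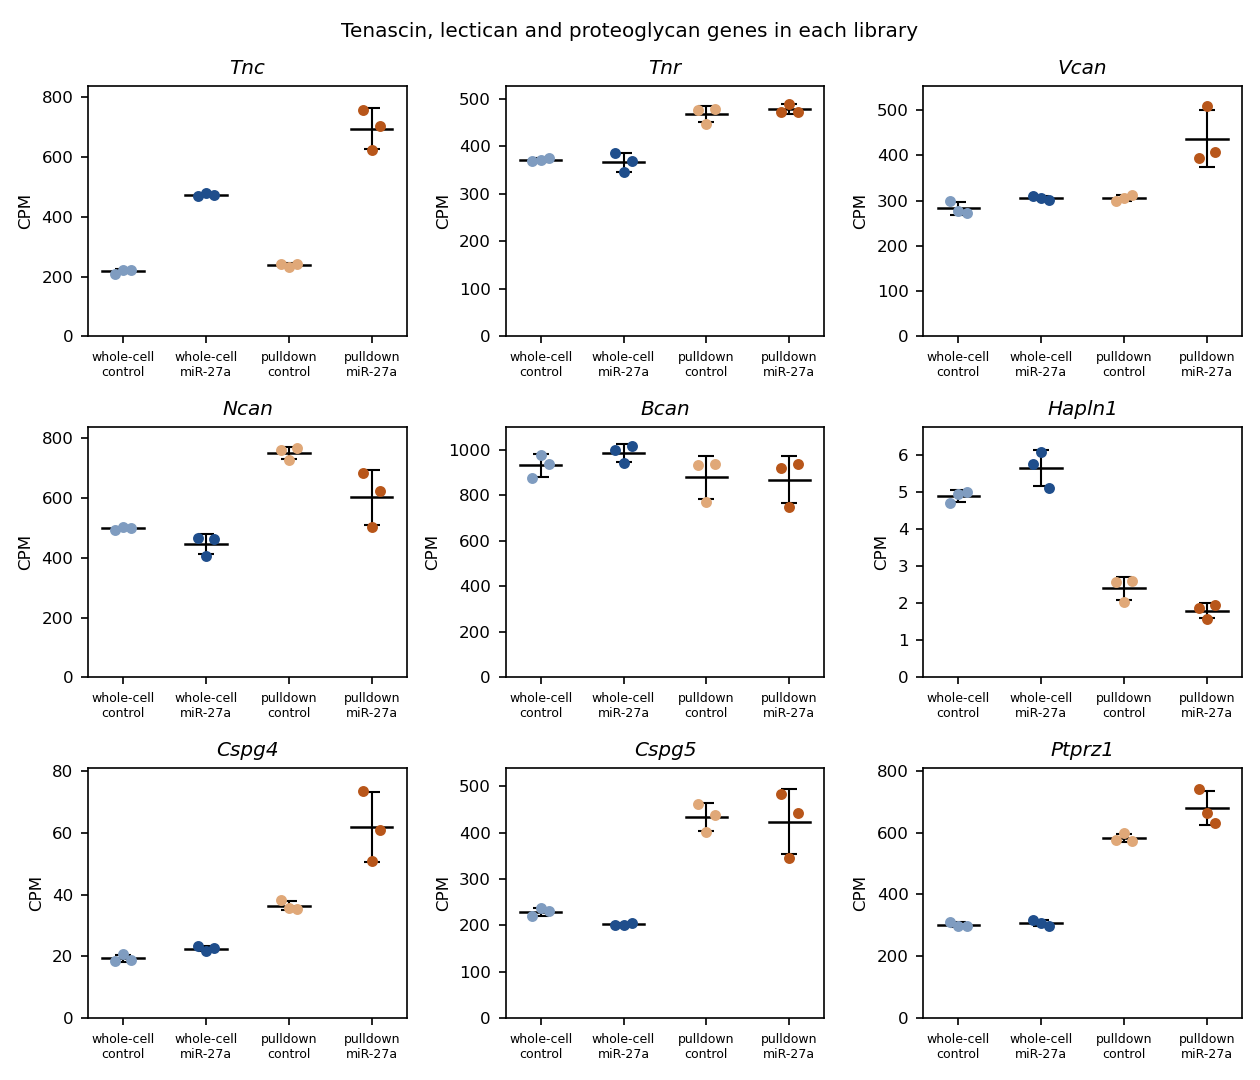
CPM of each of the 9 genes in each of the 12 libraries (points), with the mean and SD of each group of 3 (lines). Axes start at 0 and differ between genes; Tnc separates the mimics in both RNA fractions, and pulldown miR-27a libraries have the largest SD for Tnc, Vcan, Ncan, Bcan, Cspg4, Cspg5 and Ptprz1.

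Astrocyte markers moved with the mimic beside these values. In whole-cell RNA 7 of 16 tested astrocyte markers fell and 2 rose, where 11.9% of all genes fell and 13.0% rose, with a median log2 change of -0.09. The lowest p belonged to Ndrg2 (-0.67, adjusted p 2.13e-12), Aldh1l1 (-0.63, adjusted p 5.53e-12) and Slc1a2, a glutamate transporter (-0.49, adjusted p 2.63e-10), all by limma. Of 18 OPC markers 8 rose and 3 fell, against the same shares of all genes, with a median of 0.10. The OPC markers with the lowest p were Neu4, a sialidase (0.43, adjusted p 1.12e-08), and the lineage factors Olig1 (0.41, adjusted p 1.18e-06) and Olig2 (0.31, adjusted p 2.32e-06), while Pdgfra fell (-0.14, adjusted p 0.00186). Of 14 tested genes of myelin and mature oligodendrocytes 5 fell and 3 rose, against the same shares, with a median of -0.04. Tnc, Ncan, Bcan and Ptprz1 are made by astrocytes too, and the part of astrocytes in their values was not tested.

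In pulldown RNA the mimic comparison had the same leading gene. Tnc rose nearly 3-fold, Cspg4 and Vcan rose more than 1.4-fold, and Ncan fell, while Tnr, Bcan, Hapln1, Cspg5 and Ptprz1 did not pass. The counts were 3 higher and 1 lower of 9, where 13.1% of 13586 tested genes were called, 6.05% higher and 7.06% lower. The median log2 change of the 9 genes was 0.03, and that of all genes was -0.00093. For 4 of the 9 genes all miR-27a libraries were above all control libraries, and for 2 below. Over all tested genes these shares were 14.4% and 16.6%. Same-numbered pulldown libraries deviated together, though weakly, with correlations of 0.107 to 0.275, the highest for replicate 2. Between different numbers the correlations ran from -0.198 to 0.062. With the replicate number as a block 2743 genes were called in place of 1781.

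Tnc was at 241, 232 and 243 CPM in pulldown control and at 758, 622 and 704 CPM in pulldown miR-27a. The groups were far apart, and miR-27a replicate 2 was the lowest of its group. The rise of 1.53 ± 0.09 (SE) on the log2 scale had an adjusted p of 7.07e-08 and was the 6th highest of 13586. Tnr was at 478, 448 and 478 CPM in pulldown control and at 474, 490 and 473 CPM in pulldown miR-27a, with overlapping groups. Its log2 change of 0.03 had a 95% interval of -0.13 to 0.20 and an adjusted p of 0.832. The Tnc to Tnr ratio within a library was 0.511 ± 0.0063 (SD, n = 3) in pulldown control and 1.45 ± 0.17 in pulldown miR-27a.

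Vcan was at 299, 305 and 313 CPM in pulldown control and at 393, 510 and 408 CPM in pulldown miR-27a. Replicate 2 was here the highest library, and all 3 were above every control. The log2 change was 0.51 ± 0.10 (SE), with an adjusted p of 0.00240. Ncan was at 760, 727 and 766 CPM in pulldown control and at 683, 501 and 622 CPM in pulldown miR-27a. All 3 miR-27a libraries were lower, and replicate 2 was the lowest in both groups. The log2 change of -0.33 ± 0.10 (SE) had an adjusted p of 0.0469, and the call was lost without pulldown control replicate 1 (0.163), 2 (0.0970) or 3 (0.185) or miR-27a replicate 3 (0.105), with no filter on low values (0.152) and with library totals (0.0650). Bcan was at 932, 770 and 936 CPM in pulldown control and at 920, 749 and 937 CPM in pulldown miR-27a. Replicate 2 was low by a similar amount in both groups, and the groups coincided otherwise. The log2 change of -0.02 had a 95% interval of -0.24 to 0.21 and an adjusted p of 0.936, and its sign changed with the scaling and with single libraries left out.

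Hapln1 was at 2.58, 2.05 and 2.59 CPM in pulldown control and at 1.88, 1.58 and 1.96 CPM in pulldown miR-27a, from 36 to 61 reads in a library. All 3 miR-27a libraries were lower; the groups did not overlap, in either direction, for 30.9% of tested genes. A change of -0.28 ± 0.17 (SE) on the log2 scale had an adjusted p of 0.321. Cspg4 was at 38.2, 35.8 and 35.3 CPM in pulldown control and at 73.6, 50.9 and 60.8 CPM in pulldown miR-27a. Every miR-27a library was higher, replicate 2 least. The log2 change was 0.73 ± 0.12 (SE), with an adjusted p of 0.000548. Cspg5 was at 462, 402 and 438 CPM in pulldown control and at 482, 346 and 443 CPM in pulldown miR-27a. The groups overlapped and replicate 2 was again lowest in both. Its log2 change of -0.05 had a 95% interval of -0.28 to 0.19, which includes the fall of 0.18 measured in whole cells, and an adjusted p of 0.834. The Cspg4 to Cspg5 ratio of CPM within a library, for comparison between groups only, was 0.0844 ± 0.0029 (SD, n = 3) in whole-cell control and 0.111 ± 0.0039 in whole-cell miR-27a. It was 0.0841 ± 0.0044 in pulldown control and 0.146 ± 0.0077 in pulldown miR-27a, where replicate 2 did not stand apart.

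Ptprz1 was at 575, 599 and 574 CPM in pulldown control and at 740, 664 and 631 CPM in pulldown miR-27a, with every miR-27a library higher. Its log2 change of 0.22 ± 0.09 (SE) had an adjusted p of 0.113. With the replicate block in limma the adjusted p was 0.0308, and without pulldown miR-27a replicate 2 it was 0.0210. In the same libraries 7 of 16 astrocyte markers fell and none rose, with a median log2 change of -0.29. Of 18 OPC markers 5 rose and none fell, with a median of 0.15. Of 13 tested genes of myelin and mature oligodendrocytes 7 fell and 1 rose, with a median of -0.36. Over all genes 6.05% rose and 7.06% fell. The part of these shifts in the values of the 9 genes was not tested.

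**Figure D3:**
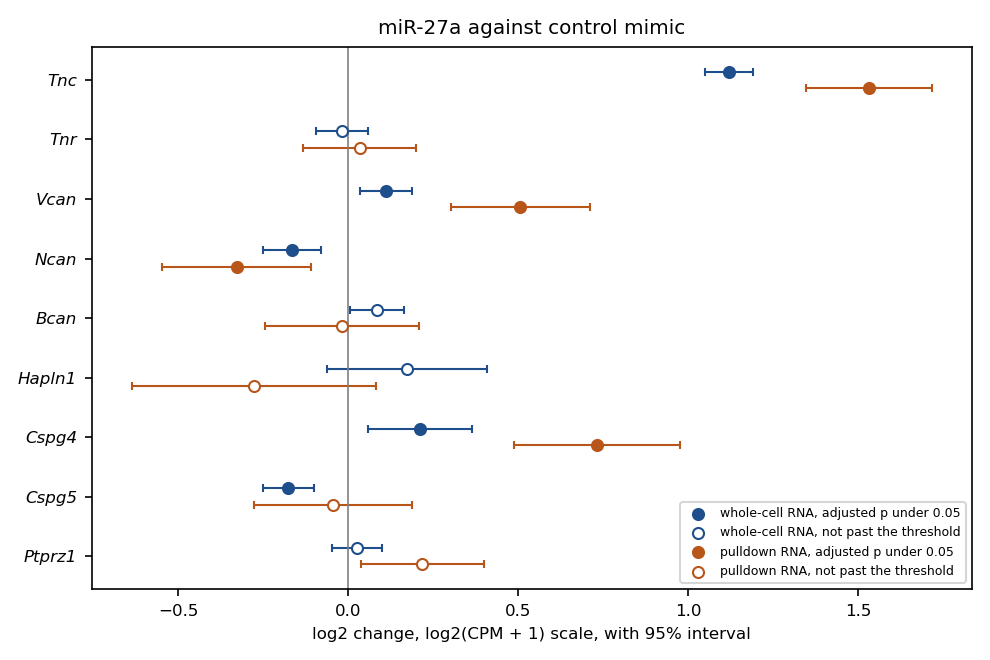
Change with miR-27a of each of the 9 genes in log2(CPM + 1), with its 95% interval, in whole-cell RNA and in pulldown RNA; filled points have an adjusted p under 0.05 in limma. Tnc lies at 1.12 and 1.53, and Tnr at -0.02 and 0.03.

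Messages also differed between the pulldown and whole-cell fractions, in comparisons that share their libraries with those of the mimics. With the control mimic the 3 membrane proteoglycan genes and Ncan and Tnr were higher in the pulldown, Hapln1 was lower, and Tnc, Vcan and Bcan did not pass. With miR-27a, Tnc and Vcan passed as well; whether the mimics differ in this was tested separately. The counts were 5 higher and 1 lower of 9 with the control mimic, where 62.0% of 13875 tested genes were called, 31.7% higher and 30.3% lower. With miR-27a they were 7 higher and 1 lower, where 60.2% were called, 29.3% higher and 30.9% lower. The median log2 difference of the 9 genes was 0.33 and 0.51, against 0.02 and -0.01 for all genes.

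With the control mimic, Ptprz1 had the largest excess in the pulldown, 1.93-fold, with a log2 difference of 0.94 ± 0.06 (SE) and an adjusted p of 5.65e-10 by limma. Cspg5 followed with 0.91 ± 0.09 and Cspg4 with 0.88 ± 0.10, and the 3 intervals overlapped. Ncan was higher by 0.59 ± 0.08 and Tnr by 0.33 ± 0.06 on the log2 scale. Among lecticans the order was thus Ncan above Vcan (0.11 ± 0.08, adjusted p 0.213) and Bcan (-0.09 ± 0.09, adjusted p 0.401), as a description of the estimates. The difference for Tnc was 0.13 ± 0.06 with an adjusted p of 0.0808; it passed when library totals replaced the normalised library sizes (adjusted p 0.00525), when only the 6 control-mimic libraries were fitted (0.0205), and when pulldown miR-27a replicate 1 (0.0340) or 2 (0.0126), which enter only through the spread, was left out. Vcan likewise passed with library totals (0.0266) and without pulldown miR-27a replicate 2 (0.0364). Hapln1 went the other way, at 0.491 of its whole-cell level and a log2 difference of -0.80 ± 0.13 (SE), with an adjusted p of 2.42e-05.

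With miR-27a, the differences were 1.40 ± 0.10 (SE) for Cspg4, 1.14 ± 0.06 for Ptprz1 and 1.04 ± 0.09 for Cspg5 on the log2 scale. Tnc differed by 0.55 ± 0.06, Vcan by 0.51 ± 0.08, Ncan by 0.43 ± 0.08 and Tnr by 0.38 ± 0.06, all with adjusted p of 0.000289 or less. Hapln1 was at 0.319 of its whole-cell level, a log2 difference of -1.25 ± 0.13 with an adjusted p of 1.26e-07. Bcan differed by -0.19 ± 0.09 with an adjusted p of 0.0677. All 3 pulldown libraries were below all 3 whole-cell libraries for Bcan; groups did not overlap, in either direction, for 64.8% of all genes in this comparison. Bcan passed without pulldown control replicate 2 (adjusted p 0.0429), which enters only through the spread. It also passed without pulldown miR-27a replicate 1 (-0.23, adjusted p 0.0264) or 3 (-0.25, adjusted p 0.0369), where the estimate itself moved. Marker lists separated between the fractions as well. In the pulldown with the control mimic 14 of 18 OPC markers were higher and none lower. Of 16 astrocyte markers 8 were lower and 4 higher, and of 14 myelin genes 10 were lower and 1 higher. Of 11 endothelial, mural and fibroblast markers 8 were higher and 2 lower, with a median log2 difference of 1.45. The medians were 0.69 for OPC markers, -0.24 for astrocyte markers and -0.75 for myelin genes. Of 11 neuron markers 6 were lower and 1 higher, and of 11 microglial markers 1 was lower and 2 higher. Of all genes 31.7% were higher and 30.3% lower. Across 13506 genes Spearman's rho between merged exon length and the pulldown difference was 0.034 with the control mimic, given as a description across genes, which are not independent replicates. The part of other cell types in the fraction differences was not tested.

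**Figure D4:**
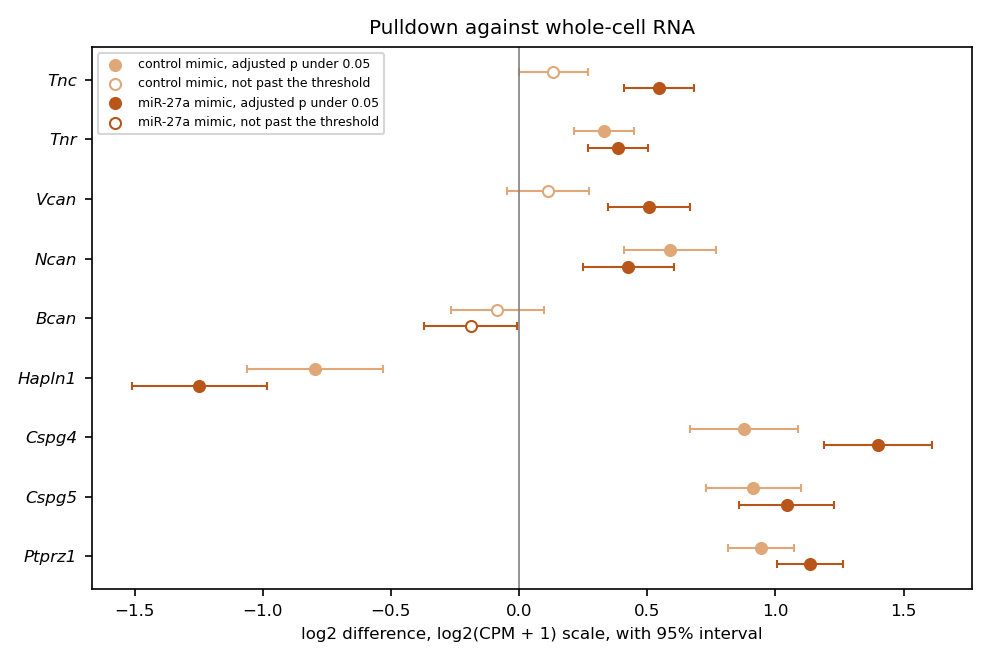
Pulldown against whole-cell difference of each gene in log2(CPM + 1), with its 95% interval, for each mimic; filled points have an adjusted p under 0.05 in limma. Cspg4, Cspg5 and Ptprz1 lie highest, between 0.88 and 1.40, and Hapln1 lowest, at -0.80 and -1.25.

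Whether the mimic moved a message differently in the 2 fractions was tested as the difference of the differences in the 12-library fit. Tnc alone of the 9 genes passed: its change with miR-27a was larger in the pulldown by 0.41 ± 0.09 (SE) on the log2 scale, with an adjusted p of 0.0337. Over all genes 1.07% of 13875 were called, 0.339% higher and 0.735% lower. Of 14 tested myelin genes 4 were lower and 1 higher, of 16 astrocyte markers 1 was lower, and of 18 OPC markers 1 was higher. The call for Tnc was lost without any 1 of 10 libraries, with adjusted p from 0.0617 without pulldown control replicate 2 to 0.114 without whole-cell control replicate 3, and it held without pulldown miR-27a replicate 1 (0.0226) or 2 (7.82e-05). It was also lost with no filter on low values (adjusted p 0.0878). Cspg4 (0.52 ± 0.14, adjusted p 0.0858) and Vcan (0.39 ± 0.11, adjusted p 0.0859) had estimates of the same size and did not pass. Without pulldown miR-27a replicate 2 both passed, Cspg4 at 0.65 (adjusted p 0.00137) and Vcan at 0.28 (adjusted p 0.0208), and so did Cspg5 at 0.27 (adjusted p 0.0463). Without pulldown miR-27a replicate 1 Vcan passed at 0.46 (adjusted p 0.0141). Hapln1 was higher with miR-27a in whole cells and lower in the pulldown in all libraries, a difference of -0.45 ± 0.18 whose adjusted p was 0.265. The other differences were 0.19 for Ptprz1, 0.13 for Cspg5, 0.05 for Tnr, -0.10 for Bcan and -0.16 for Ncan, with adjusted p from 0.353 to 0.835. Among the members with the larger estimates, Tnc and Vcan held none of the searched letters, and Cspg4 and Hapln1 each held a 7mer. Tnr, which held the longest match, had an estimate of 0.05. Of these estimates only that of Tnc passed. Whether the difference between fractions depended on a seed match in the members was not tested.

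Genes that build, sulfate, bind or cut these matrix components were followed in lists. The relatives of the 9 genes were scarce. Of Tnn, Tnxb, Acan, Hapln2, Hapln3 and Hapln4, 3 passed the filter in whole-cell RNA and none changed, with Hapln4 at 7.00 ± 0.84 CPM (SD, n = 3) in control and 5.84 ± 0.81 in miR-27a, Hapln3 at a log2 change of 0.18 and Hapln2 at -0.03. In pulldown RNA 1 of 4 changed: Hapln4, a brain link protein, fell by 0.57 on the log2 scale (adjusted p 0.00488 by limma), and Tnxb was at 0.59 (adjusted p 0.105).

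Most enzymes that make and sulfate chondroitin sulfate chains did not pass the test with the mimic. Of 26 tested, 1 rose and 1 fell in whole-cell RNA, with a median log2 change of 0.05. Of all genes 13.0% rose and 11.9% fell in whole-cell RNA, and 6.05% rose and 7.06% fell in pulldown RNA. Csgalnact1, which starts the chain, rose by 0.29 (adjusted p 0.00490), Chst11, a 4-O-sulfotransferase, fell by 0.16 (adjusted p 0.0155), and Chst3, a 6-O-sulfotransferase, was at -0.13 (adjusted p 0.0510). In pulldown RNA 1 rose and 2 fell, Chst3 by 0.40 (adjusted p 0.00526) and the uronyl 2-sulfotransferase gene Ust by 0.38 (adjusted p 0.00657). Between fractions 20 of the 26 were higher in the pulldown with the control mimic and 2 lower, where 31.7% of all genes were higher and 30.3% lower, with a median log2 difference of 0.59.

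Hyaluronan genes changed in both directions. Of 7 tested in whole-cell RNA, 2 rose and 3 fell, with a median of -0.21. Over all genes 13.0% rose and 11.9% fell in whole-cell RNA, and 6.05% rose and 7.06% fell in pulldown RNA. Hmmr, a hyaluronan-binding protein of the mitotic spindle, rose by 0.64 (adjusted p 1.15e-09), the hyaluronan receptor gene Cd44 fell by 0.54 (adjusted p 3.95e-05), and Tmem2, a hyaluronidase of the cell surface, fell by 0.21 (adjusted p 0.00213). In pulldown RNA 1 rose and 2 fell, with a median of 0.22; Hmmr was at 1.15 (adjusted p 9.04e-06) and Cd44 at -0.50 (adjusted p 0.00783).

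Binding partners and receptors also changed in both directions, with 5 higher and 7 lower of 25 in whole-cell RNA and a median of -0.05. The shares of all genes were 13.0% higher and 11.9% lower in whole-cell RNA, and 6.05% and 7.06% in pulldown RNA. Cntn1, contactin-1, a neural adhesion molecule that binds tenascins and PTPRZ1, rose by 0.40 (adjusted p 1.19e-09). Itgav and Itgb8, which encode integrin chains that pair with each other, fell by 0.29 (adjusted p 4.67e-07) and 0.40 (adjusted p 2.50e-06). In pulldown RNA 6 rose and 4 fell, with a median of 0.04; Cntn1 went from 1023 ± 33 CPM (SD, n = 3) to 1816 ± 96, a log2 change of 0.83 (adjusted p 2.03e-05), and Erbb3, a neuregulin receptor, rose by 1.04 (adjusted p 0.000192). Of 15 proteases and inhibitors acting on lecticans or NG2, 2 rose and 3 fell in whole-cell RNA, against the same shares, with a median of 0.02. The protease gene Mmp2 rose by 0.50 (adjusted p 0.00153), and the inhibitor genes Timp1 and Timp4 fell by 0.66 (adjusted p 3.20e-06) and 0.50 (adjusted p 0.00408). In pulldown RNA 3 rose and 3 fell, with a median of 0.13, Mmp2 at 0.97 (adjusted p 3.64e-05) and Timp1 at -0.89 (adjusted p 0.000253).

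Other proteoglycans of the membrane and matrix mostly did not pass. Of 21 tested in whole-cell RNA 3 rose and 1 fell, with a median of 0.03: Aplp2, a relative of the amyloid precursor that can carry chondroitin sulfate, rose by 0.20 (adjusted p 0.000835), the glypican gene Gpc3 rose by 0.42 (adjusted p 0.00182) and the syndecan gene Sdc4 fell by 0.14 (adjusted p 0.00987). In pulldown RNA 3 of 24 rose and 2 fell, with a median of 0.02, Aplp2 at 0.42 (adjusted p 0.00281) and Srgn, the serglycin gene, at -0.90 (adjusted p 0.00270). The share called of each list is read against the 24.9% and 13.1% of all genes.

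**Figure D5:**
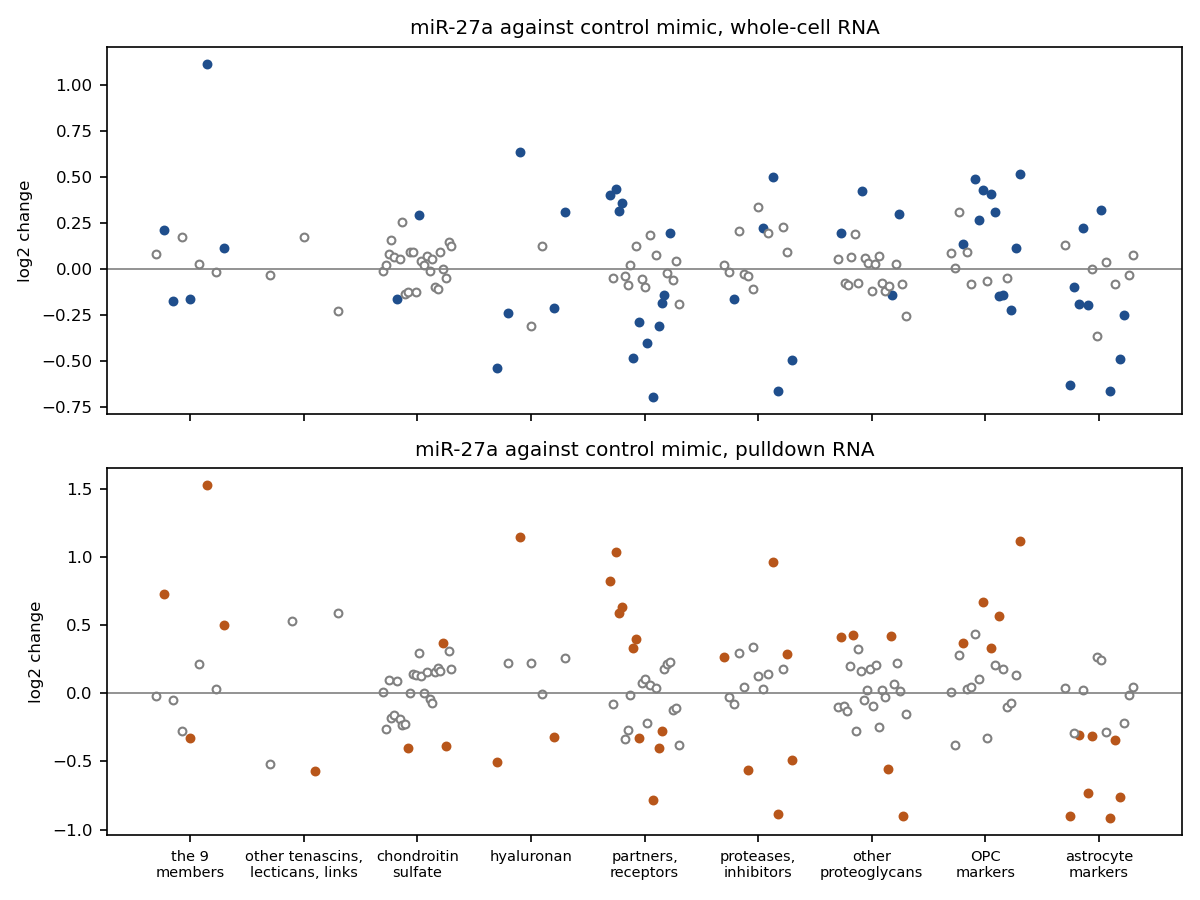
Log2 change with miR-27a of every tested gene of the 9 members, of the related gene lists and of the OPC and astrocyte marker lists, in whole-cell RNA (top) and pulldown RNA (bottom). Filled points have an adjusted p under 0.05 in limma; Tnc is the highest point in both panels, at 1.12 and 1.53.

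The genes whose levels followed each member most closely were ranked by Pearson's r of log2(CPM + 1) over the 12 libraries among 13874 genes. The libraries fall into 4 groups, so r describes shared group differences and carries no test. For Tnc, Itga6, an integrin chain (r = 0.987), and the OPC marker Neu4 (0.983) were among the 3 nearest, and both were higher with miR-27a in both fractions by their group means. Itga6 went from 178 to 222 CPM in whole cells and from 189 to 260.4 CPM in the pulldown. For Cspg4 the nearest was Gpr17 (0.988), a receptor of the oligodendrocyte lineage, at 423, 465, 635 and 819 CPM in whole-cell control, whole-cell miR-27a, pulldown control and pulldown miR-27a. For Tnr it was the protease gene Adamts20 (0.991), for Ncan Marcksl1 (0.983), for Vcan 2010106G01Rik (0.977), for Cspg5 Galntl1 (0.995) and for Ptprz1 Igfbp5 (0.997). For Hapln1 it was Ptpn11 (0.991), and for Bcan it was Acads (0.946).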

How the data were processed

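The deposited table holds log2 CPM per gene for 12 libraries, made by the authors; per the series' design text, reads were trimmed with skewer, aligned with HISAT2 to GRCm38, counted with featureCounts and normalised in R. The submitters' processing notes also name mm8. No source here gives versions, annotation or strand setting. CPM was taken as 2 to the power of the deposited log2 value, less 2 to the power of the lowest value (-6.27, shared by 12 libraries). Whole reads were recovered for 100% of values within 0.01 reads, and CPM was then computed from these reads. A count of 3 reads corresponded to 0.116 to 0.200 CPM; such limits cover counting error only.

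limma 3.58.1 in R 4.3.3 was fitted to log2(CPM + 1) with a mean-variance trend, on genes reaching 1 CPM in 3 or more libraries. Fold changes on this scale understate those of low genes. Mimic comparisons used 6 libraries each, fraction comparisons all 12, without covariates; tests were two-sided. Groups came from the sample titles. The members and lists were chosen with earlier results of these data known. All 9 members are named, and of each list up to 3 genes of smallest p in whole-cell and 2 in pulldown RNA. Tmem2 and Cemip2 are 2 names of 1 gene. Alternatives were pseudocount, filter, scaling, voom on the recovered reads, samples in the fit, replicate block and single libraries left out. Deviations of same-numbered pulldown libraries correlated at 0.107 to 0.275. The main fits nevertheless treated all libraries as unpaired, and the replicate number entered as a block only among the alternatives. That link comes from the data, since the labels do not say what a number marks. Lengths, positions and 3′ untranslated regions came from GENCODE M21, in which 19526 of 20540 symbols matched. Of the genes nearest to Tnc, 1 is not reported here. Fits were also run on simulated data with independent libraries and the same spread setting for all genes. The outlying pulldown miR-27a replicate 2 and the shared deviations of same-numbered libraries were not simulated, so those runs do not bear on them.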

Additional observations from a re-analysis of the deposited data

Results flagged for a closer look

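The change of Tnc with miR-27a differed between the RNA fractions by a test of the difference itself. It was 1.12 on the log2 scale in whole-cell RNA and 1.53 in pulldown RNA, a difference of 0.41 ± 0.09 (SE) with an adjusted p of 0.0337 by limma over 12 libraries. All 3 miR-27a libraries were above all 3 control libraries in both fractions, which describes each change and not the difference between them. Over the alternatives the difference ranged from 0.35 to 0.49 and its adjusted p from 7.82e-05 to 0.114. The call was lost for most of the libraries when left out singly, and with no filter on low values.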

How the results depend on the processing

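Tnc kept its direction and its call in both mimic comparisons under every alternative run (log2 change 1.09 to 1.13 in whole-cell and 1.47 to 1.61 in pulldown RNA). The small whole-cell changes did not hold throughout: Vcan lost its call with no filter (adjusted p 0.0794) and with median-of-ratios scaling (0.0895), Cspg4 with no filter (0.0700), median-of-ratios scaling (0.0568) and the replicate block (0.0561), and with all 12 libraries in 1 fit Vcan (0.428), Cspg4 (0.223), Ncan (0.259) and Cspg5 (0.244) all lost theirs. In the pulldown Ncan lost its call with no filter (0.152) and with library totals (0.0650), and Ptprz1 gained one with all 12 libraries (0.0153). The Tnc difference between fractions lost its call with no filter (0.0878). The cause was not tested. The number of members called ran from 1 to 5 in whole-cell RNA, 3 to 5 in pulldown RNA, 6 to 8 and 8 to 9 in the fraction comparisons with control mimic and miR-27a, and 0 to 4 for the difference of differences.

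Signs reversed, all among changes that did not pass, for Tnr in whole-cell RNA without miR-27a replicate 2 (over all left-out libraries -0.055 to 0.022); for Bcan in pulldown RNA with library totals (0.0046) and without control replicate 1 (0.03), control replicate 3 (0.03) or miR-27a replicate 2 (0.084), with a range of -0.11 to 0.084; for Cspg5 in pulldown RNA without miR-27a replicate 2 (range -0.15 to 0.093); for Bcan between fractions with the control mimic under library totals (0.0054) and without pulldown control replicate 2 (range -0.13 to 0.0069); and for the Bcan difference of differences without pulldown miR-27a replicate 2 (range -0.20 to 0.00089).

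Over all genes, all 12 libraries in 1 fit called 1415 genes in whole-cell RNA in place of 3335, and 3051 in pulldown RNA in place of 1781, where the replicate block called 2743. The difference of differences had 73 calls with no filter in place of 149. Leaving out single libraries gave 2379 to 3294 calls in whole-cell RNA, 969 to 2691 in pulldown RNA, 7777 to 9147 and 7429 to 8441 between fractions with control mimic and miR-27a, and 43 to 473 for the difference of differences. With library totals 60.2% of the calls between fractions under miR-27a were higher, against 48.7%; with median-of-ratios scaling 42.4% of the calls for the difference of differences were higher, against 31.5%. Counting 6mers gave 5 members with a seed match in place of 4. Outside the pulldown mimic comparison the deviations of same-numbered libraries correlated at -0.097 to 0.161. There the block called 3104 genes in whole-cell RNA, 8579 and 8314 between fractions and 139 for the difference of differences. With the block in limma Bcan passed between fractions with miR-27a (adjusted p 0.0484). In the pulldown the block changed no member's call other than that of Ptprz1. Hapln1 had the fewest reads of the 9 genes, at 36 to 107 in a library, followed by Cspg4 at 284 to 1530. How far depth limits their tests was not tested.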
